A study of Mus musculus with 9 samples.

Results

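*Zfp36*, *Zfp36l1*, *Zfp36l2* and *Zc3h12a* are 4 of the 55401 genes counted in this RNA-Seq series, and they encode RNA-binding proteins that shorten the life of messenger RNAs. They were chosen by gene name, after differences between the pre-malignant and leukemic libraries were known, so their own changes are given below as a description and without p-values. All 4 genes had reads in the libraries, and all 4 had a mean normalized count of at least 10 in both comparisons with the pre-malignant group. In the comparison of the leukemic groups *Zfp36l1* fell under that limit, and 3 of the 4 were tested.

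The libraries were made from mouse H9M cells, a leukemia model in which lineage-negative bone marrow of C57BL/6-Ly5.1 mice carries a gammaretroviral vector for Meis1 and Hoxa9 with a puromycin resistance gene. In all groups the cells also carried a lentiviral color code vector (FGB-D), which includes the surface marker EGFRt. Single-cell derived clones with 24 color codes were pooled and given, with helper bone marrow, to lethally irradiated C57Bl6/J mice, and splenocytes were thawed and sorted by color code in the CD45.1+ EGFRt+ cKit+CD11bdim gate. Mouse #15, at an early time point, gave the pre-malignant group with clone 33BC-D, clone 38BC-D and clone 43BC-D. At the leukemic endpoint these clones formed the de novo expanded group, 38BC-D in mouse #13, 43BC-D in mouse #14 and 33BC-D in mouse #17. The stably expanded group was 1 clone, 34BC-D, in the same mice #13, #14 and #17. Each group had 3 libraries. The pre-malignant state and mouse #15 cannot be told apart, and the stably expanded state cannot be told apart from clone 34BC-D. Each column could be tied to its group only, so the library numbers 1 to 3 are names and stand for no particular clone or animal.

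ZFP36 family proteins (ZFP36, also called tristetraprolin, ZFP36L1 and ZFP36L2) bind AU-rich elements in 3′ untranslated regions through a pair of CCCH zinc fingers and recruit the CCR4-NOT deadenylase, after which the transcript is decapped or degraded by the exosome. Regnase-1, the product of *Zc3h12a*, is an endonuclease that cleaves stem loops in 3′ untranslated regions of inflammatory transcripts. In blood cells these proteins limit cytokine production, and *Zfp36* is itself an immediate early gene whose transcript rises within minutes of many stimuli.

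Libraries held 10379739 to 15551196 reads on genes, and levels are given as CPM, the reads of a gene scaled to the total reads on genes of its library (counts per 1000000). Of the sorted cells' other possible sources, B cell markers summed to 17.3 to 21.2 CPM in pre-malignant libraries. The sums were 7.52 to 12.9 CPM in de novo expanded and 11.2 to 20.0 CPM in stably expanded libraries. *Cd79b* alone had 14.6, 9.73 and 17.8 CPM of the stably expanded sums, beside 6.91, 10.1 and 4.66 CPM in pre-malignant libraries. Of 6 tested B cell markers, 5 fell from the pre-malignant to the stably expanded group, 4 of them without overlap, and 1 rose. Of all genes 14.6% were lower without overlap there. The median log2 fold change of the 6 was -2.42. From the pre-malignant to the de novo expanded group all 6 fell, with a median of -1.31. Of these, 2 did so without overlap, beside 8.5% of all genes. Erythroid markers summed to 18.9 to 35.2, 2.29 to 14.9 and 2.31 to 24.3 CPM in the pre-malignant, de novo expanded and stably expanded groups. T cell markers stayed between 1.17 and 4.52 CPM and platelet markers between 1.25 and 3.11 CPM, with *Ppbp* and *Gp1bb* at 0 reads throughout. Monocyte and macrophage markers summed to 498 to 638 CPM in pre-malignant, 315 to 755 CPM in de novo expanded and 592 to 757 CPM in stably expanded libraries. Mature neutrophil markers summed to 189 to 234 CPM in pre-malignant, 158 to 605 CPM in de novo expanded and 568 to 4375 CPM in stably expanded libraries. Of 4 tested monocyte and macrophage markers, 3 were higher and 1, *Csf1r*, was lower in stably expanded than in pre-malignant libraries. In de novo expanded libraries all 4 were lower than in pre-malignant ones, with a median log2 fold change of -0.74. *Csf1r* had 97.6, 125 and 160 CPM in pre-malignant and 29.1, 56.9 and 32.9 CPM in stably expanded libraries. Markers of the sorted progenitors were at 8634 to 8993, 3514 to 18550 and 9919 to 11207 CPM, with the highest value in de novo expanded library 3. *Mpo* alone had 15796 CPM in that library. Of the other markers, *Hoxa9* (687 CPM) and *Meis1* (1099 CPM) were also highest there, *Cd34* (46.6 CPM) was lowest there, and the rest lay between. Where these lists moved with a result below, their part in it was not tested. In bulk RNA, fewer cells with a transcript and less of it per cell cannot be told apart.

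*Zfp36* lies on the minus strand of GRCm38.p6 at chr7:28376784-28380253. Its level was 219, 162 and 220 CPM in pre-malignant libraries 1 to 3, while de novo expanded libraries had 94.6, 96.8 and 75.6 CPM and stably expanded ones 55.7, 108 and 103 CPM. Every leukemic library was below every pre-malignant library, whereas the leukemic groups overlapped. Group means were 200 ± 33.2, 89.0 ± 11.6 and 88.9 ± 28.8 CPM (SD, n = 3 each), so the order of levels was pre-malignant above a pair of leukemic groups that did not differ beyond their spread. On the scale of log2(normalized count + 1), *Zfp36* differed by -1.15 between de novo expanded and pre-malignant (SE 0.16, 95% interval -1.52 to -0.78), or 2.21-fold, and by -1.21 between stably expanded and pre-malignant (SE 0.22, 95% interval -1.70 to -0.72), or 2.32-fold. Between stably and de novo expanded the difference was -0.05 (SE 0.25, 95% interval -0.63 to 0.54). The antisense gene *Gm44710*, which overlaps *Zfp36*, had 38 reads over all 9 libraries against 15803 for *Zfp36*.

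**Figure D1:**
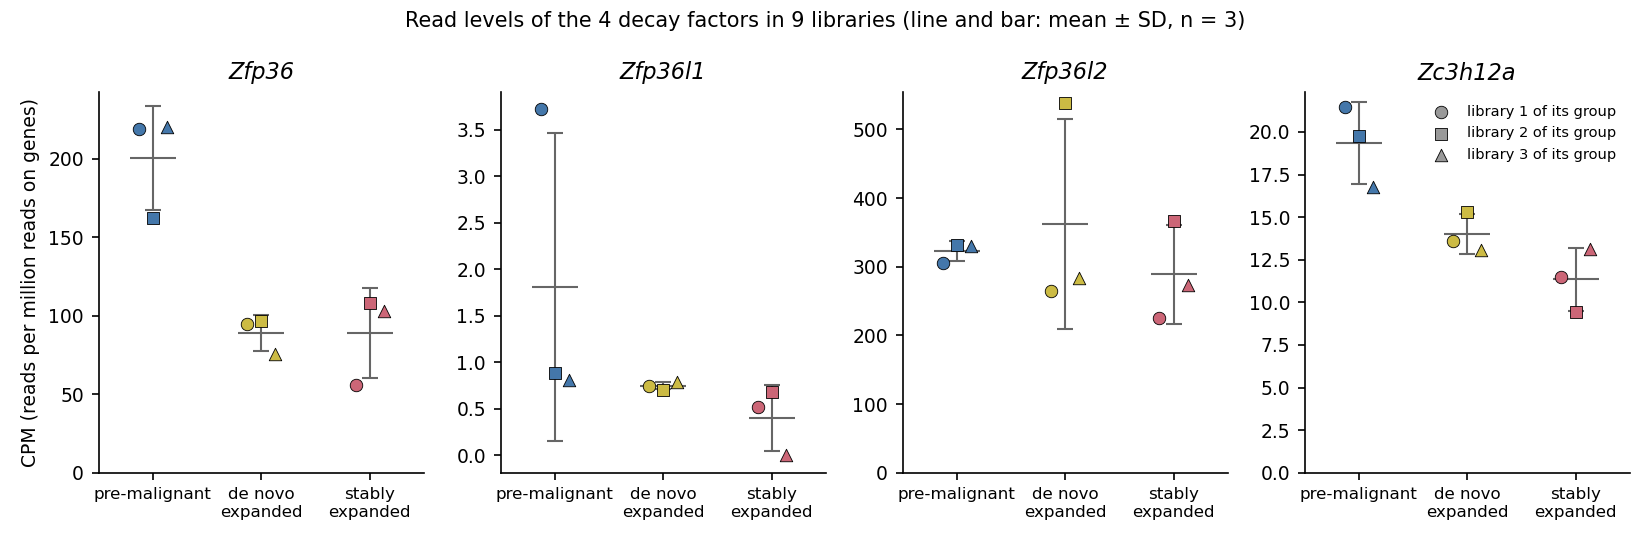
Levels of the 4 decay factors in CPM (y axis, linear) in the 3 libraries of each group (x axis), with points for libraries and a line with bar for mean ± SD. The 6 leukemic *Zfp36* values, from 55.7 to 108 CPM, lie below the 3 pre-malignant values, from 162 to 220 CPM, while *Zfp36l2* overlaps between all groups and *Zfp36l1* stays below 1 CPM in all libraries but pre-malignant library 1.

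*Zfp36l2*, at chr17:84183931-84187947 on the minus strand, did not share this pattern. The 3 pre-malignant libraries had 306, 332 and 331 CPM, the de novo expanded libraries 264, 538 and 283 CPM, and the stably expanded libraries 226, 367 and 273 CPM. The groups overlapped, and de novo expanded library 2 was the highest of all 9. Mean levels were 323 ± 14.5, 362 ± 153 and 289 ± 71.9 CPM (SD, n = 3 each), and no neighbours in this order differed beyond their spread. The differences were 0.10 (SE 0.25, 95% interval -0.48 to 0.68) for de novo expanded over pre-malignant and -0.18 (SE 0.14, 95% interval -0.50 to 0.13) for stably expanded over pre-malignant. A change of *Zfp36l2* of the size seen for *Zfp36* lies outside both intervals. The overlapping antisense gene *AC132455.1* had 46 reads in all against 41292 for *Zfp36l2*.

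*Zfp36l1*, at chr12:80107754-80113013 on the minus strand, was close to the limit of detection. Pre-malignant libraries had 49, 13 and 12 reads (3.72, 0.890 and 0.811 CPM), de novo expanded libraries 9, 11 and 12 reads (0.751, 0.707 and 0.784 CPM), and stably expanded libraries 8, 10 and 0 reads (0.522, 0.685 and 0 CPM). The 0 in stably expanded library 3 allows up to 3 reads, or 0.289 CPM. Both leukemic groups lay below the pre-malignant libraries, but the smallest distance between the groups was 0.811 against 0.784 CPM and the pre-malignant mean of 1.81 ± 1.66 CPM (SD, n = 3) rested on library 1. The difference of -0.84 for de novo expanded over pre-malignant (SE 0.63) became -0.15 without that library. For stably expanded over pre-malignant it was -2.20 (SE 0.94), but -1.14 without stably expanded library 3, -3.33 and -1.38 with pseudocounts of 0.1 and 5, and -0.88 on CPM. Its size therefore depended on the pseudocount and on single libraries. Without pre-malignant library 1 the gene fell under the count limit and was not tested. The stably expanded libraries also lay below the de novo expanded ones, with a mean normalized count under 10 and no test.

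*Zc3h12a*, at chr4:125118423-125127840 on the minus strand, encodes the nuclease regnase-1. It had 21.5, 19.8 and 16.8 CPM in pre-malignant libraries, while de novo expanded libraries had 13.6, 15.3 and 13.1 CPM and stably expanded ones 11.5, 9.46 and 13.1 CPM. Both leukemic groups lay below the pre-malignant libraries, and the leukemic groups touched at their edges, where stably expanded library 3 was marginally above de novo expanded library 3. The means were 19.3 ± 2.39, 14.0 ± 1.17 and 11.3 ± 1.83 CPM (SD, n = 3 each). The differences from pre-malignant were -0.44 (SE 0.17, 95% interval -0.83 to -0.05) in de novo expanded and -0.77 (SE 0.20, 95% interval -1.20 to -0.33) in stably expanded, or 1.36-fold and 1.70-fold, and both point values were smaller in size than those of *Zfp36*.

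**Figure D2:**
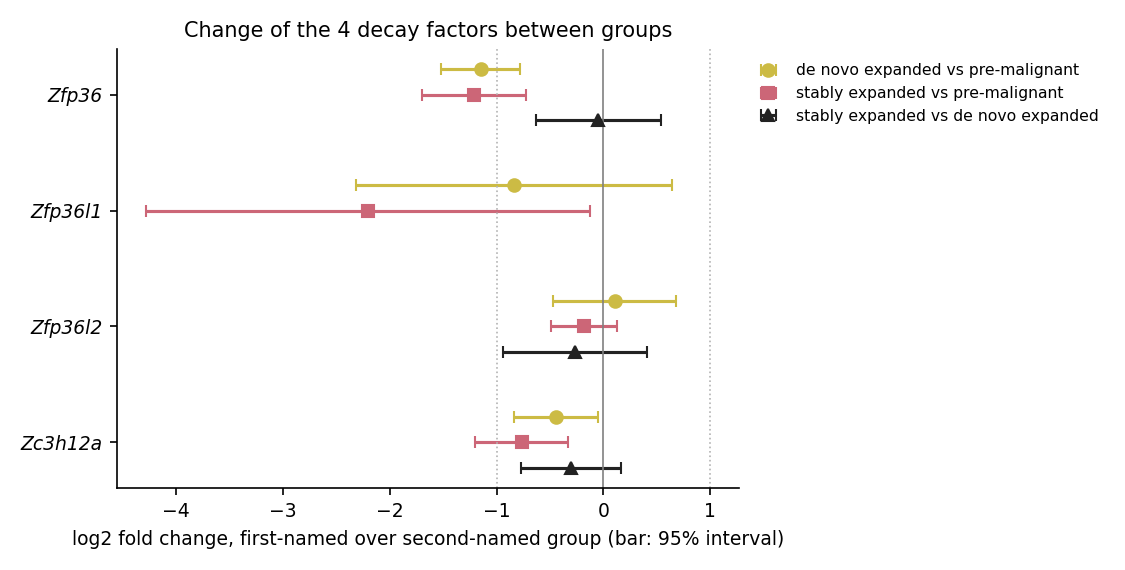
Log2 fold changes of log2(normalized count + 1) (x axis, with 95% intervals) of each decay factor (y axis) for 3 comparisons, the first-named group over the second, with dotted lines at 2-fold. *Zfp36* lies at -1.15 and -1.21 against pre-malignant and at -0.05 between the leukemic groups, and *Zfp36l1* was not tested between the leukemic groups.

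Read across all genes, these values stood in different surroundings in the 3 comparisons. A gene was called when limma with Benjamini-Hochberg adjustment gave an adjusted p under 0.05 and the change was at least 2-fold. In the de novo expanded against the pre-malignant group, 0 of 14195 tested genes (0%) were called by limma and 0 by edgeR, against 42 by DESeq2 and 1597 at an unadjusted p under 0.05. No overlap with a lower level was seen for 3 of the 4 decay factors (*Zfp36*, *Zfp36l1* and *Zc3h12a*) and for 8.5% of all genes. Between stably expanded and pre-malignant, 1.55% of 13968 genes were called lower and 1.2% higher. Of the decay factors *Zfp36* was among the lower calls, and 3 of the 4, the same genes, did not overlap, as did 14.6% of all genes on the lower side. Between stably and de novo expanded 0.00727% of 13758 genes, that is 1 gene, were called, and 0 of the 3 tested decay factors were without overlap on the lower side against 4.95% of all genes. Because the decay factors were selected on these contrasts, nothing is read from their counts. The comparisons also share the pre-malignant libraries. Without stably expanded library 1 the change of *Zfp36* was -0.91 and no longer reached 2-fold. Without de novo expanded library 3 *Zfp36* was called between de novo expanded and pre-malignant, in a fit that called 214 genes.

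The balance within the family does not depend on the scaling between libraries, since both genes are counted in the same library. Per *Zfp36l2* read the pre-malignant libraries had 0.716, 0.488 and 0.665 *Zfp36* reads, the de novo expanded ones 0.358, 0.180 and 0.267, and the stably expanded ones 0.247, 0.294 and 0.377. All 6 leukemic ratios were below the lowest pre-malignant ratio, and the means were 0.623 ± 0.119, 0.268 ± 0.0892 and 0.306 ± 0.0657 (SD, n = 3 each). *Zfp36* made up 36.7 ± 4.52% of the reads of the 4 genes in pre-malignant, 20.2 ± 5.25% in de novo expanded libraries and 22.6 ± 3.74% in stably expanded ones, and *Zfp36l2* 59.4 ± 4.57%, 76.5 ± 5.95% and 74.3 ± 3.57%. The summed level of the 3 ZFP36 genes overlapped between the groups, at 494 to 551 CPM in pre-malignant, 359 to 635 CPM in de novo expanded and 282 to 476 CPM in stably expanded libraries. The ratio of *Zfp36* to *Zc3h12a* reads was 8.18 to 13.1, 5.79 to 6.96 and 4.85 to 11.4 in the 3 groups, where only the de novo expanded group was separate from the pre-malignant group.

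**Figure D3:**
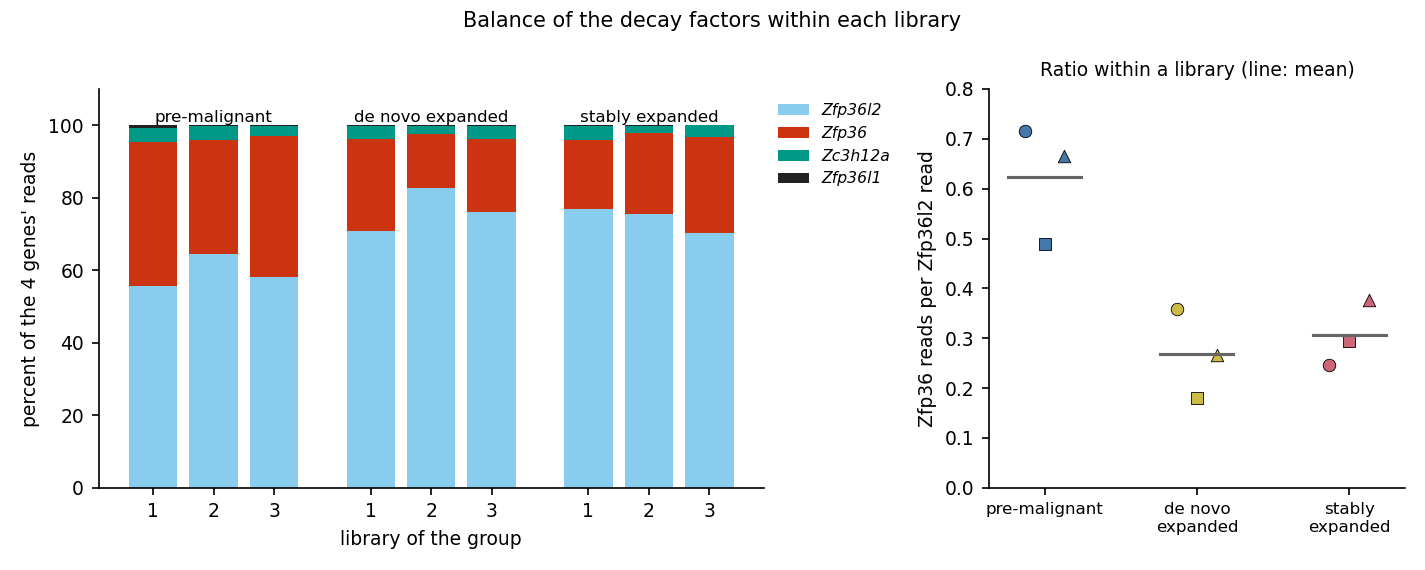
Left, share of each decay factor in the reads of the 4 genes (y axis, percent) in each library (x axis, by group), and right, *Zfp36* reads per *Zfp36l2* read, with a point per library and a line at the group mean. The ratio lies between 0.488 and 0.716 in pre-malignant and between 0.180 and 0.377 in leukemic libraries.

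Levels of different genes were compared per kilobase of the gene length given in the tables. In the pre-malignant libraries *Zfp36l2* had the highest level with 91.4 ± 4.11 CPM per kb (SD, n = 3), followed by *Zfp36* with 57.7 ± 9.58, *Zc3h12a* with 6.71 ± 0.830 and *Zfp36l1* with 0.604 ± 0.554 CPM per kb. The order was the same in the de novo expanded group, with 102 ± 43.3, 25.7 ± 3.35, 4.85 ± 0.406 and 0.250 ± 0.0128 CPM per kb, and in the stably expanded group, with 81.8 ± 20.4, 25.6 ± 8.31, 3.94 ± 0.634 and 0.135 ± 0.120 CPM per kb. In this sorted cell population the family was thus represented mainly by *Zfp36l2* and *Zfp36*, with little *Zfp36l1*. The tabulated length of *Zfp36*, 3470 bases, equals its whole genomic span, so its level per kb is understated relative to genes whose length leaves out introns.

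The region before the start site of *Zfp36* is shown because this gene differed most clearly between groups. RefSeq windows of GRCm38.p6, reaching from 250 bases before to 50 after the start, were found for 3 of the 4 genes, *Zfp36* (chr7:28379179-28379478, minus strand), *Zfp36l1* (chr12:80112964-80113263, minus strand) and *Zc3h12a* (chr4:125127832-125128131, minus strand). The windows were searched on both strands for a CArG box (bound by serum response factor), the EGR site GCGNGGGCG, the AP-1 site TGANTCA, the cAMP response element TGACGTCA, an NF-κB site and the C/EBP site TTNNGCAA, and matches are in capitals.
Zfp36: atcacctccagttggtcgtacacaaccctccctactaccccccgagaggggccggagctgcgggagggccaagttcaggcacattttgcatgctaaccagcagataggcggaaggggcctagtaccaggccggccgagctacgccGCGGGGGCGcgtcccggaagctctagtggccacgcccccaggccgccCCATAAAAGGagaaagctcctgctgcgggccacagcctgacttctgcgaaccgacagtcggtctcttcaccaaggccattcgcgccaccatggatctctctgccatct
Zfp36l1: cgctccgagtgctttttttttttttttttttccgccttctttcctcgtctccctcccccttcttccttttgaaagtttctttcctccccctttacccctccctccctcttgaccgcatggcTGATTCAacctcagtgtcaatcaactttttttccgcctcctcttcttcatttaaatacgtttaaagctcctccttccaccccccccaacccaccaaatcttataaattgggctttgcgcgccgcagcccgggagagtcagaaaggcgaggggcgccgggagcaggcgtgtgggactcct
Zc3h12a: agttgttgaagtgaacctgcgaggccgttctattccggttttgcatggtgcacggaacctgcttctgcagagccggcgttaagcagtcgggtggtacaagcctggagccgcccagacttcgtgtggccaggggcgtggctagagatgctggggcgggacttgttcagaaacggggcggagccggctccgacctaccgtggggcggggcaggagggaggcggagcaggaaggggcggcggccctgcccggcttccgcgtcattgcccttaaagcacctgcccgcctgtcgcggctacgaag
The *Zfp36* window held a CArG box, CCATAAAAGG, beginning 58 bases before the start, and an EGR site, GCGGGGGCG, beginning 105 bases before it. A CArG box was present in 1.63% and an EGR site in 5.55% of 32851 such windows. The *Zfp36l1* window held TGATTCA, a match to the AP-1 pattern TGANTCA with T at the open position, 129 bases before the start. That pattern, with any base at N, was found in 7.81% of windows. None of the 6 motifs was found in the *Zc3h12a* window. The remaining motifs, absent from the 3 windows, were present in 1.79% (cAMP response element), 8.46% (NF-κB) and 10.8% (C/EBP) of windows. A match of letters does not show that a factor binds there.

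Over the 9 libraries, the genes whose log2(CPM + 1) was most like that of *Zfp36* among 13403 genes were *Ier2* (Pearson r = 0.97), *Cyp39a1* (0.96), *Adora3* (0.96), *Fos* (0.96) and *Atf3* (0.95). *Ier2*, *Fos* and *Atf3* are immediate early genes, *Cyp39a1* encodes an oxysterol hydroxylase and *Adora3* an adenosine receptor. *Fos* had 526, 482 and 645 CPM in pre-malignant, 220, 313 and 140 CPM in de novo expanded and 86.4, 313 and 274 CPM in stably expanded libraries, with the lowest value in the library that also had the lowest *Zfp36*. *Ier2* ranged from 193 to 229 CPM in pre-malignant and from 89.1 to 158 CPM in leukemic libraries. Levels of *Cyp39a1* (1.44 to 4.32 CPM) and *Adora3* (0.392 to 3.41 CPM) were low and rested on few reads. These points share the group structure and the same 9 libraries, and the correlations are descriptions. The genes most like *Zc3h12a* were *Smg1* (r = 0.98), a kinase of nonsense-mediated decay, *Ehmt1* (0.96), a histone methyltransferase, and *Gm47260* (0.96). For *Zfp36l2* they were *Phf6* (0.94), *Rab7b* (0.93) and *Slamf6* (0.92), and for *Zfp36l1* they were *Zfp236* (0.97), *Zranb3* (0.93) and *Slc25a2* (0.93). *Slamf6* went down to 0.196 CPM and *Slc25a2* to 0.289 CPM, each the level of 3 reads in its library. By Spearman's rank correlation 2 of the 5 genes listed for *Zfp36*, 1 of the 3 for *Zc3h12a* and none of the 3 for *Zfp36l1* and for *Zfp36l2* were again at the top, and with TMM-scaled CPM 1 of the 3 for *Zfp36l2*. *Zranb3*, like *Zfp36l1*, was highest in pre-malignant library 1, and its Spearman's rho with *Zfp36l1* was 0.58. Between the decay factors themselves, r was 0.74 for *Zfp36* with *Zc3h12a*, 0.56 for *Zfp36* with *Zfp36l1* and 0.29 for *Zfp36* with *Zfp36l2*.

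Of the close relatives of the decay factors none was called, and their spread within groups differed widely. The list of other CCCH and roquin decay factors has 7 genes, of which 5 were tested, and 0 were called in any comparison by limma, edgeR or DESeq2, with 0 at an unadjusted p under 0.05. *Rc3h1* and *Rc3h2* encode roquins, which bind stem loops like those cleaved by regnase-1. *Rc3h1* had normalized counts of 1790, 1767 and 1618 in pre-malignant and 1749, 1574 and 1761 in de novo expanded libraries, a difference of -0.03 (SE 0.10), and *Rc3h2* differed by -0.03 (SE 0.12). For stably expanded over pre-malignant the values were -0.13 (SE 0.10) and -0.14 (SE 0.11). *N4bp1*, a nuclease of the regnase kind, differed by -0.04 (SE 0.18) and 0.10 (SE 0.11). The regnase paralogs *Zc3h12c* and *Zc3h12d* varied widely within groups, *Zc3h12c* between 1.89 and 58.8 normalized counts in the pre-malignant group alone, and differed from it by -0.40 (SE 1.26) and 0.19 (SE 0.59) in de novo expanded and by 0.11 (SE 1.09) and -0.66 (SE 0.41) in stably expanded libraries. *Zc3h12b* and *Zfp36l3* were near 0 and not tested.

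The machinery these factors recruit was likewise without a called gene in limma in all 3 comparisons. Between stably expanded and pre-malignant, 0 of 20 CCR4-NOT and PAN deadenylase genes, 0 of 23 decapping genes, 0 of 14 exosome genes, 0 of 11 other AU-rich element binding proteins and 0 of 25 kinases, phosphatases and 14-3-3 proteins that act on ZFP36 or regnase were called, with 6, 6, 1, 4 and 8 at an unadjusted p under 0.05 and 0 called by edgeR or DESeq2. Of all genes 25.4% were at an unadjusted p under 0.05 in this comparison. The medians of their log2 fold changes were -0.01, 0.03, 0.04, 0.10 and 0.06, beside 0.00 for all genes. In the same order, 1, 0, 0, 2 and 4 genes had an adjusted p under 0.05 in limma, all with changes under 2-fold. Differences in the kinase list ranged from -1.40 to 0.56. For de novo expanded over pre-malignant the medians were -0.01, 0.06, 0.11, 0.06 and -0.04, beside 0.01 for all genes, with 4, 5, 2, 1 and 4 genes at an unadjusted p under 0.05, as were 11.3% of all genes, and 0 called by edgeR but 2 deadenylase cofactors (*Tob1* and *Btg2*) called lower by DESeq2.

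Single genes of these lists moved by less than 2-fold or missed the adjusted threshold. *Tob1*, an antiproliferative adaptor of the CCR4-NOT deadenylase, had normalized counts of 235, 209 and 226 in pre-malignant and 113, 108 and 98.3 in de novo expanded libraries, without overlap, a difference of -1.07 (SE 0.17, adjusted p = 0.301 in limma). In stably expanded libraries it differed by -0.80 (SE 0.19, adjusted p = 0.0306 in limma). *Btg2*, a related adaptor and an immediate early gene, differed by -1.08 (SE 0.22, adjusted p = 0.33 in limma) in de novo expanded and by -0.51 (SE 0.20, adjusted p = 0.145) in stably expanded libraries. *Elavl1* and *Hnrnpd*, which bind AU-rich elements as HuR and AUF1, were higher by 0.39 (SE 0.11, adjusted p = 0.0497 in limma) and 0.35 (SE 0.09, adjusted p = 0.0443 in limma) in stably expanded than in pre-malignant libraries. Among the decapping genes the largest differences were those of *Lsm5* and *Lsm6* (0.59 and 0.53 in de novo expanded) and of *Lsm5* and *Lsm3* (0.80 and 0.42 in stably expanded), which encode subunits of Lsm rings. In the exosome list, which also holds cofactors such as *Ttc37*, they were *Exosc8* (0.38) and *Exosc2* (0.34) in de novo expanded libraries. In stably expanded libraries they were *Exosc9* (0.34) and *Ttc37* (-0.23), and none of these genes was called. Among the kinases and their adaptors *Traf3ip2*, an adaptor of interleukin-17 signalling, differed by -0.83 and -0.71 without a call.

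Reported targets of the ZFP36 family were mostly lower in both leukemic groups than in the pre-malignant group. Any part of *Zfp36* in their levels was not tested. In de novo expanded libraries, 26 of 31 tested targets were lower than in pre-malignant ones and the median difference was -0.57, beside 0.01 for all genes, with 0 called by limma or edgeR, 2 by DESeq2 (*Dusp1* and *Fos*) and 10 at an unadjusted p under 0.05. Of the 31, 11 were lower without overlap, beside 8.5% of all genes. Leaving out de novo expanded library 3 brought this median to -0.10 and gave 3 targets called lower and 1 higher. In that fit 214 of all genes were called. The median was also closer to 0 with DESeq2 (-0.23), in genes averaging 50 or more normalized counts (-0.28), with edgeR (-0.32), on CPM (-0.33) and without a filter (-0.34). At an unadjusted p under 0.05 were 11.3% of all genes, and 49.0% of all genes were lower. The largest changes were those of the signalling inhibitor *Socs3*, -2.68 (SE 0.98, adjusted p = 0.414 in limma), and the cytokine subunit gene *Il23a*, -2.53 (SE 0.70, adjusted p = 0.372 in limma), both with at most 40.6 normalized counts in any library.

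Between stably expanded and pre-malignant, 27 of 31 ZFP36 targets were lower, 9 were called lower and 1 higher, and the median was -0.77. Of all genes 49.5% were lower, 1.55% were called lower and 1.2% higher, and the median was 0.00. The 9 were the chemokine genes *Cxcl2* (-3.26), *Ccl3* (-1.46) and *Ccl4* (-1.38), the kinase genes *Plk2* (-2.63), *Plk3* (-1.15) and *Pim1* (-1.22), the receptor gene *Csf1r* (-1.71), the AP-1 gene *Fos* (-1.49) and the survival gene *Bcl2* (-1.04). Their adjusted p lay between 0.00284 and 0.0466 in limma. *Cxcl2* fell from 30.2, 55.2 and 66.6 normalized counts in pre-malignant to 2.68, 9.11 and 2.66 in stably expanded libraries (adjusted p = 0.0102 in limma). *Pim1* fell from 986, 1090 and 1023 to 372, 449 and 519 (adjusted p = 0.00284 in limma). Of the 31 targets, 19 were lower without overlap, beside 14.6% of all genes. The 9 called genes were among the 19, but they were called on the same libraries, so nothing further is read from that. *Vegfa*, which encodes an angiogenic factor, rose from 689, 640 and 391 to 1818, 902 and 1457 normalized counts, a difference of 1.26 (SE 0.26, adjusted p = 0.0173 in limma). *Csf1r* is also on the monocyte marker list. The count of targets called lower was 7 by edgeR and 6 by DESeq2, between 2 and 10 when single libraries were left out, with the lowest value without pre-malignant library 2, and 0 when all 9 libraries shared 1 fit, in which 6 of all genes were called.

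Between the leukemic groups, where *Zfp36* differed by -0.05, 18 of 26 ZFP36 targets were lower in stably expanded libraries. Their median was -0.18, beside 0.00 for all genes. Limma, edgeR and DESeq2 called 0 of them, and 0 were at an unadjusted p under 0.05, beside 4.83% of all genes. *Ccnd1* (-2.19, SE 2.04) and *Vegfa* (1.85, SE 0.94) had the largest differences, and both varied widely among de novo expanded libraries, *Vegfa* from 128 to 2000 normalized counts.

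**Figure D4:**
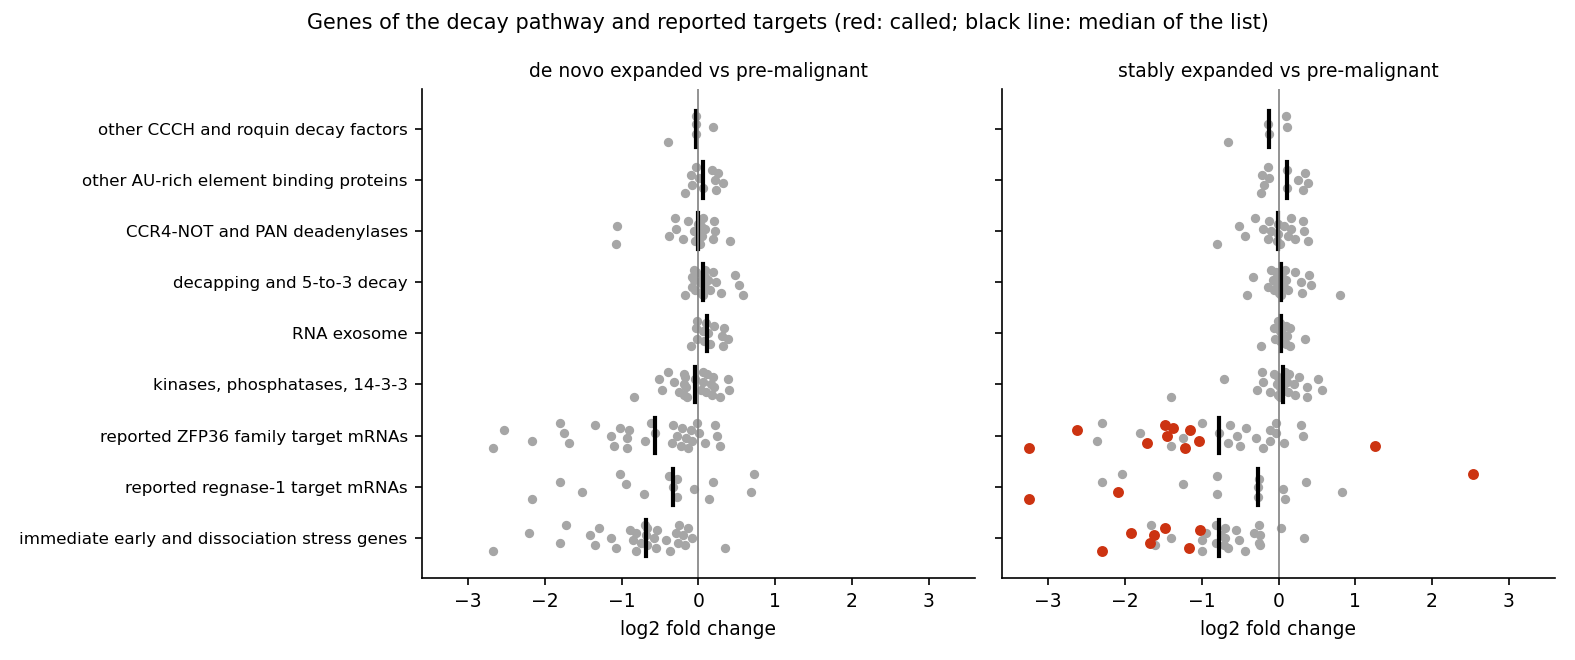
Log2 fold changes (x axis) of the tested genes of each list (y axis) against pre-malignant in de novo expanded (left) and stably expanded (right) libraries, with a dot per gene, red for called genes, and a black line at the median. The machinery lists have medians near 0, and the ZFP36 target list has medians of -0.57 and -0.77.

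Reported targets of regnase-1 were 24 genes without *Zfp36*, which is one of them, and shared 7 genes with the ZFP36 target list, among them *Cxcl2* and *Ptgs2*. In de novo expanded libraries 11 of 15 were lower than in pre-malignant ones, with a median of -0.34 (-0.04 without de novo expanded library 3). Limma, edgeR and DESeq2 called 0, and 3 were at an unadjusted p under 0.05, beside 11.3% of all genes. Between stably expanded and pre-malignant 10 of 15 were lower with a median of -0.27. Without overlap 8 were lower, beside 14.6% of all genes, and 2 higher. At an unadjusted p under 0.05 were 9, beside 25.4% of all genes. By limma 2 were called lower and 1 higher, beside 1.55% and 1.2% of all genes. These calls were 1 and 1 without pre-malignant library 2, and 0 and 0 when all 9 libraries shared 1 fit. *Nfkbiz*, an atypical IκB and a classical regnase-1 substrate, fell from 613, 437 and 406 to 75.1, 125 and 145 normalized counts, a difference of -2.10 (SE 0.25, adjusted p = 0.00346 in limma), and *Cxcl2* was the other. *Lcn2*, which encodes the neutrophil granule protein lipocalin-2 and is also on the neutrophil marker list, rose from 216, 167 and 128 to 1699, 940 and 579 normalized counts, a difference of 2.54 (SE 0.33, adjusted p = 0.00357 in limma), alongside the neutrophil markers given above. *Tfrc*, which encodes the transferrin receptor, did not pass the 2-fold limit with 0.83 (adjusted p = 0.00869 in limma). Between the leukemic groups 12 were tested by limma, with a median of -0.07, and 0 were called by limma, edgeR or DESeq2. Of the 12, 2 were at an unadjusted p under 0.05, beside 4.83% of all genes. *Lcn2* (1.88, SE 0.59) and *Id1* (1.08, SE 0.36) were the largest differences.

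Immediate early genes and genes induced by tissue dissociation, a class that includes *Zfp36* in many cell types, were lower as a group. Their summed level was 4877 to 5260 CPM in pre-malignant, 3380 to 4183 CPM in de novo expanded and 2877 to 4531 CPM in stably expanded libraries, with no leukemic library reaching the pre-malignant range. In the de novo expanded group 30 of 31 tested genes were lower than in pre-malignant libraries. Their median was -0.69, beside 0.01 for all genes. Of the 31, 0 were called by limma or edgeR and 5 by DESeq2, and 18 were at an unadjusted p under 0.05, beside 11.3% of all genes. Without de novo expanded library 3 limma called 7 of them lower, in a fit that called 214 of all genes. Between stably expanded and pre-malignant 28 of 30 were lower with a median of -0.78, and 7 were called lower, *Atf3* (-2.30), *Klf4* (-1.93), *Nr4a2* (-1.68), *Ppp1r15a* (-1.63), *Fos* (-1.49), *Junb* (-1.16) and *Klf6* (-1.03), with adjusted p between 0.00284 and 0.0381 in limma. Of all genes 1.55% were called lower and the median was 0.00. That count was 6 by edgeR and 4 by DESeq2, between 2 (without pre-malignant library 2) and 12 (without stably expanded library 3) when single libraries were left out, and 0 in 1 fit of all 9 libraries. Between the leukemic groups the median was -0.10 and 0 were called by limma, edgeR or DESeq2. At an unadjusted p under 0.05 were 0, beside 4.83% of all genes. This list shares *Dusp1*, *Fos*, *Ier3* and *Socs3* with the ZFP36 targets. Splenocytes of all groups were thawed and sorted before RNA was extracted, and the part of that handling in the levels of *Zfp36* and these genes was not tested.

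Transcripts of the ZFP36 family carry AU-rich elements themselves. The nonamer TTATTTATT, a preferred site of the ZFP36 family, was counted in the longest annotated 3′ untranslated region of each gene (GENCODE transcripts of build NCBIM37, matched by gene identifier). *Zfp36*, *Zfp36l1* and *Zfp36l2* held 1 nonamer each and *Zc3h12a* none, while 6.51% of 20007 genes with such a region held at least 1. Sites are shown for the decay factors and for 3 called targets, with the nonamer in capitals.
Zfp36: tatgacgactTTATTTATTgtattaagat
Zfp36l1: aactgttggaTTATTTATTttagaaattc
Zfp36l2: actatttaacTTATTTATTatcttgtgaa
Cxcl2: gagagttcacTTATTTATTtatctatgta
Plk3: tggaccacttTTATTTATTaacagacatt
Fos: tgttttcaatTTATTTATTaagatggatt
Of 40 reported ZFP36 targets 18 held the nonamer, with 4 in *Cxcl2*, 2 in *Plk3* and 1 in *Fos*, and 1 in *Vegfa*, which rose. Of the targets called lower, *Ccl3*, *Ccl4*, *Pim1* and *Csf1r* held none.

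Genes were also grouped by this count, a grouping made after the results were known and given without a test. Between stably expanded and pre-malignant, 1.28% of 9911 genes without a nonamer were called lower, 2.33% of 645 genes with 1, 3.77% of 106 genes with 2, and 5 of 60 genes (8.33%) with 3 or more, named here after their values were seen as *Zfp11*, *Cxcl2*, *Tmcc2*, *Ppp1r15a* and *Il10ra*. The shares called higher were 1.43%, 1.71%, 0.943% and 0%. Median differences of these classes lay within -0.03 and 0.04, and 44.7%, 52.1%, 53.8% and 56.7% of their genes were lower. The median length of the untranslated region rose from 1072 bases in the first class to 2642 in the last, so that nonamer count and length moved together. For de novo expanded over pre-malignant, 0 genes were called in each class. There 45.1%, 55.1%, 57.7% and 49.2% of genes were lower, with medians of 0.03, -0.03, -0.03 and 0.02.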

How the data were processed

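RNA-Seq libraries of color code sorted cKit+CD11bdim splenocytes, 9 in 3 groups, were analysed. According to the paper and the labels, the authors trimmed reads with Trim Galore 0.6.4, aligned them with STAR 2.6.1d to GRCm38.p6, counted them per gene with featureCounts 1.6.4 and scaled each of 3 tables, with 6 libraries each, by DESeq2 size factors. The strand setting of the counting is not given in the sources used here. These normalized counts, a signal per library, are what the authors deposited. The tables also hold fold changes, test statistics and p-values of the authors' own comparisons, which were not used. Reads were recovered from the step of 1 read in each library, with at least 99.995% of values whole within 0.05, and CPM were computed from them. A count of 0 still allows for 3 reads, a limit for counting error alone.

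Differences were fitted with limma 3.58.1 (empirical Bayes with trend, two-sided) to log2(normalized count + 1) of all genes whose normalized counts averaged at least 10 in the table, and p-values were adjusted over them by Benjamini-Hochberg. Calls required an adjusted p under 0.05 and 2-fold change. Alternatives were pseudocounts of 0.1 and 5, no filter or an average of at least 50, CPM, quantile normalization, edgeR 4.0.16 (quasi-likelihood, TMM), DESeq2 1.42.0, 1 fit of all 9 libraries and leaving out each library. Both count tools used the recovered reads. The fit was also run on simulated counts with changes larger than those of *Zfp36*, so the recovery of changes of that size was not tested. Computations ran in R 4.3.3 and Python 3.11.15. The 4 genes, the lists and the rule for named genes (all relatives, and of each other list the called genes with the largest change or, without calls, the 2 largest changes) were chosen with earlier results of these data known, and lists were written from general knowledge. *Tfrc*, the calls beyond 4 of a list and the genes called by DESeq2 were named after their values were seen. Replicates of the stably expanded group are 1 clone in 3 mice and those of the pre-malignant group 3 clones in 1 mouse, and p-values measure the spread between these libraries. Some genes named by this rule, and 1 feature of the cell model, are not reported here.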

Additional observations from a re-analysis of the deposited data

How the results depend on the processing

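No paired analysis was possible because the columns of the tables carry no sample within a group, and no fit held a term for the clone. No called value changed sign. For *Zfp36*, the difference from pre-malignant lay between -1.30 and -1.04 in de novo expanded and between -1.37 and -0.91 in stably expanded libraries when single libraries were left out, and between -1.18 and -1.14 and between -1.25 and -1.17 under the other settings. *Zfp36* was called between stably expanded and pre-malignant under 13 of 15 alternatives, the exceptions being 1 fit of all 9 libraries and leaving out stably expanded library 1, and between de novo expanded and pre-malignant under 3 of 15 (no filter, DESeq2, without de novo expanded library 3). The difference of *Zfp36l2* from pre-malignant in de novo expanded libraries lay between -0.22 and 0.30 with single libraries left out, and *Zfp36l1* lay between -3.33 and -0.88 in stably expanded over pre-malignant under settings other than leaving out a library.

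Counts of called genes moved most. For de novo expanded over pre-malignant, 5 genes were called without a filter, 42 by DESeq2 and 5 in 1 fit of all 9 libraries, and 0 to 214 when single libraries were left out, with 214 without de novo expanded library 3. For stably expanded over pre-malignant, 6 were called in 1 fit of all 9 libraries and 206 to 452 with single libraries left out, of which pre-malignant libraries 1, 2 and 3 and stably expanded library 1 gave 240, 206, 219 and 208. For stably over de novo expanded, 2 were called without a filter, 2 on CPM, 29 by DESeq2 and 2 in 1 fit of all 9 libraries, and 0 to 508 with single libraries left out, with 508 without de novo expanded library 3 and 0 without any 1 stably expanded library. The causes were not tested.

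Medians of the relatives and machinery lists, all near 0, moved as follows. In de novo expanded over pre-malignant the decapping median was 0.026 under quantile normalization (0.026 to 0.089 with single libraries left out) and the kinase median 0.014 with edgeR (-0.12 to 0.046). In stably expanded over pre-malignant the median of other CCCH and roquin factors was -0.016 without a filter, of AU-rich element binding proteins 0.031 under quantile normalization and -0.014 with DESeq2 (0.0092 to 0.12), of decapping genes -0.013 (0.024 to 0.077) and of kinases -0.016 (0.014 to 0.076) under quantile normalization, and with single libraries left out that of deadenylases was -0.035 to 0.056 and of exosome genes 0.016 to 0.10. In stably over de novo expanded the decapping median was -0.040 under quantile normalization, and the exosome median -0.088 to -0.0090 with single libraries left out.

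Target lists moved more. In stably expanded over pre-malignant the regnase-1 target median was -0.38 without a filter, -0.10 at a mean of at least 50 and -0.61 with DESeq2, and -0.41 to -0.24 with single libraries left out, and the immediate early median was -1.14 to -0.61. In de novo expanded over pre-malignant the ZFP36 and regnase-1 target medians were -0.83 to -0.10 and -0.51 to -0.042 with single libraries left out, and in stably over de novo expanded the regnase-1 target median was -0.44 to 0.12, all with the value nearest or farthest from 0 without de novo expanded library 3.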
